A study of Mus musculus with 2 samples.

Results

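Footprint counts of 45 genes of the cell cycle and of DNA replication were examined in ribosome profiles of mouse brain at postnatal day 5. The genes were chosen by symbol from a list that covers the 3 stages of the cycle, and all 45 were found among the 45578 genes of the table. They comprise 8 genes that act in G1 and at entry into S phase, 19 genes that copy the DNA or supply its building blocks in S phase, and 18 genes of G2 and mitosis. The list was proposed when other results from these libraries were known. Their footprints together made up 0.149% of the library in replicate 1 (95% interval by the exact Clopper-Pearson method, 0.143 to 0.154). In replicate 2 their share was 0.190% (0.187 to 0.194), and the mean was 0.170% ± 0.0296 (SD, n = 2).

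The cell cycle is driven by kinases that work only when bound to a cyclin. In G1, D cyclins with Cdk4 or Cdk6 phosphorylate the retinoblastoma protein and so release E2F factors, which switch on the genes of DNA synthesis. Cyclin B with Cdk1 then drives mitosis, and the anaphase-promoting complex destroys cyclin B to end it. Most neurons of the newborn mouse brain have left the cycle, while granule cell precursors of the cerebellum, precursors of oligodendrocytes and the progenitors along the ventricles still divide.

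Both libraries came from the brains of control animals that carried Smn+/- with SMN2tg/0, that is, 1 working allele of Smn beside a transgene of human SMN2, in strain FVB. No animals without these alleles and no second condition were analysed here, so the comparisons are among genes and between the replicates. The labels call the samples biological replicates; whether 1 brain or a pool went into each library is not stated. Ribosomes were taken from polysome fractions, and the stretches of mRNA they shielded from RNase I were sequenced. A count therefore reports how many ribosomes sat on a gene's transcripts, in the whole brain. Fewer dividing cells and fewer ribosomes on the mRNA of each such cell cannot be told apart in such a sample.

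Replicate 1 held 1866831 footprints and replicate 2 held 5261878, so replicate 2 was 2.82 times as deep and its values carry less counting error. Intervals cover counting error only. PCR copies are not independent molecules, so the intervals can be too narrow even for that error. Levels are given in CPM, the count scaled so that each library sums to 1000000. Levels of different genes were compared only as CPM per kilobase (kb) of the longest annotated coding sequence of the gene. The tissue label was checked against neuronal markers: the 7 genes Dcx, Tubb3, Rbfox3, Map2, Snap25, Syt1 and Stmn2 took 0.549% of replicate 1 and 0.447% of replicate 2.

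Every member had footprints in both libraries. Counts ran from 8 (Bub1) to 351 (Ccnd2) in replicate 1 and from 47 (Ccne2) to 1091 (Ccnd2) in replicate 2. Of the 45 genes, 44 reached 10 footprints in both, and Bub1, with 8 in replicate 1 and 52 in replicate 2, was the exception. All 45 passed the filter of a mean count of at least 10. Across these 45 genes, Pearson's r of log2 CPM between the replicates was 0.939 and Spearman's rho was 0.935; these describe 1 pair of libraries, and genes are not independent replicates.

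The levels of the members spanned a wide range, with D cyclins, Cdk4 and Pcna at the top and kinetochore proteins and large polymerase subunits at the bottom. The median level over the 13349 tested genes with a coding sequence was 23.5 CPM per kb. Of the members, 13 lay above it: 4 of 8 G1 genes, 6 of 19 S phase genes and 3 of 18 genes of mitosis. The group medians were 44.9, 16.3 and 9.61 CPM per kb in that order. Levels were lower for longer coding sequences among the members (Spearman's rho -0.76 over 45 genes) and, less steeply, over all tested coding genes (-0.45 over 13349). Length enters both quantities, so this is a description of how the values lie.

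**Figure D1:**
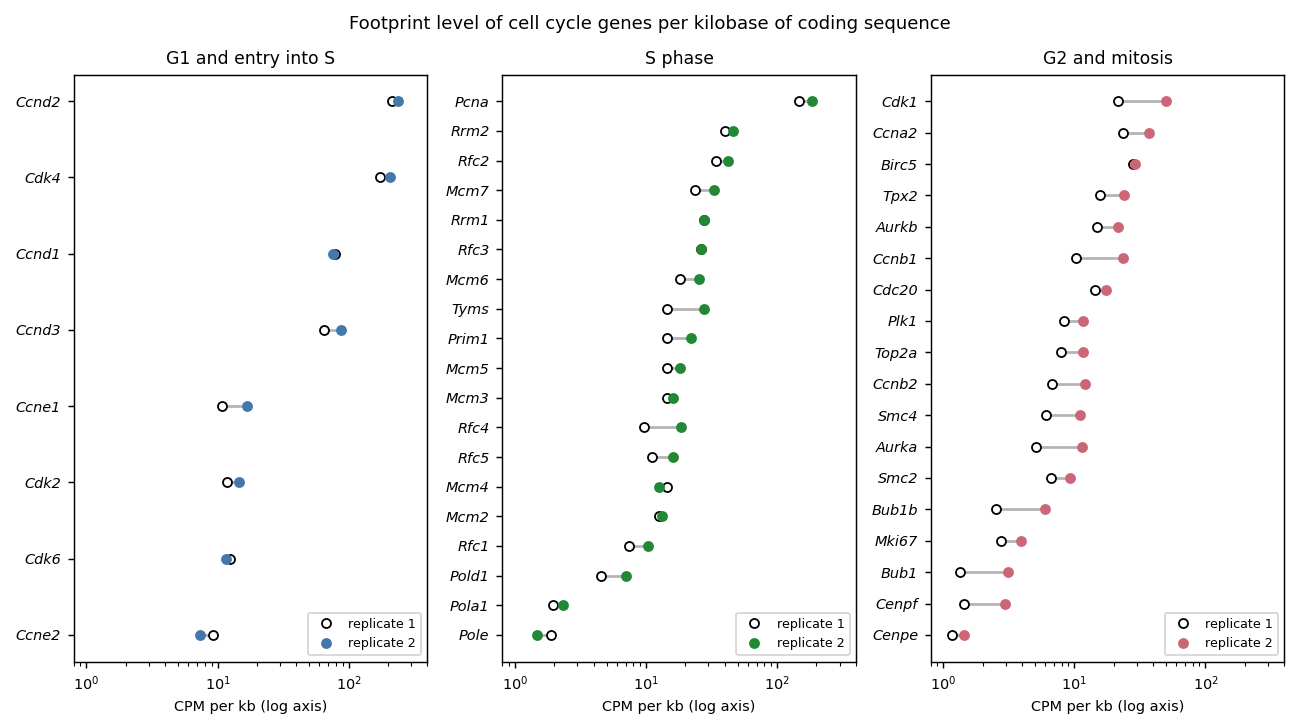
Footprint level of each of the 45 genes in CPM per kb of coding sequence, on a log axis, in 3 panels by stage. Open circles are replicate 1, filled circles replicate 2 and grey lines join them. Ccnd2, Cdk4 and Pcna lie highest, and for all 18 genes of mitosis the filled circle lies to the right of the open one on this scale, which uses library totals. On that scale 61.9% of all genes tested were higher in replicate 2. With TMM scaling 17 of the 18 mitosis genes were higher, against 50.5% of all genes.

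The G1 genes fell into a high and a low set. Ccnd2 (ENSMUSG00000000184), the D cyclin known for its role in neural progenitors and cerebellar precursors, had 351 footprints in replicate 1 and 1091 in replicate 2, or 188 and 207 CPM. Its level of 227 CPM per kb ± 15.7 (SD, n = 2) was the highest of all members per kb of coding sequence, at percentile 94.2 of tested coding genes. Per kb of the full length of the transcript with the highest share, Ccnd2 stood at 31.2 CPM, below Pcna at 86.2 and Cdk4 at 84.9. Ccnd1 and Ccnd3, which bind the same kinases, followed at 77.3 ± 2.46 and 76.1 ± 15.4 CPM per kb. Ccnd2 thus exceeded Ccnd3 by 3.03-fold ± 0.405 (n = 2). Ccnd1 and Ccnd3 did not differ beyond their spread, and their order was opposite in the replicates.

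The kinases of the D cyclins lay far apart. Cdk4 (ENSMUSG00000006728) had counts of 296 and 1000 and a level of 191 CPM per kb ± 24.4, whereas Cdk6, its close relative, had counts of 23 and 60 and a level of 12.1 ± 0.661. Cdk4 exceeded Cdk6 by 15.9-fold ± 2.89 (n = 2), and by 8.62-fold ± 1.35 when footprints on protein-coding transcripts alone were counted. The E-type cyclins, which activate Cdk2 at the start of S phase, were low. Ccne1 had counts of 25 and 108, with 13.8 CPM per kb ± 4.11. Ccne2 had counts of 21 and 47 and was the lowest of the group at 8.31 ± 1.35. Cdk2 had counts of 23 and 80 and a level of 13.2 ± 1.96, within the spread of Ccne1 and Cdk6.

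Pcna, the sliding clamp that holds polymerases on the DNA, stood far above the other S phase genes. It had 217 footprints in replicate 1 and 766 in replicate 2, and a level of 167 CPM per kb ± 26.4 (percentile 91.2). Fragments of its pseudogene Pcna-ps2, which had counts of 62 and 245, may be shared with it, so both values are uncertain. Rrm2, the small subunit of the ribonucleotide reductase that makes deoxynucleotides, came next at 43.3 ± 4.35 CPM per kb. Its partner Rrm1 stood at 27.7 ± 0.0740, and Rrm2 exceeded it by 1.56-fold ± 0.153. Tyms, which makes thymidylate, had counts of 25 and 134 and a level of 21.0 ± 9.24.

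The MCM genes encode the 6 subunits of the replicative helicase, which form a ring with 1 copy of each. Their levels lay close together. Mcm2 stood at 13.0 CPM per kb ± 0.476, Mcm4 at 13.5 ± 1.37, Mcm3 at 15.2 ± 1.05 and Mcm5 at 16.3 ± 2.49. Mcm6 at 21.8 ± 5.29 and Mcm7 at 28.3 ± 6.37 were the top pair in both replicates. From Mcm2 to Mcm7 the difference was 2.18-fold ± 0.412. The order of Mcm2 and Mcm4 was opposite in the replicates. Mcm3 was the lowest of the ring when only protein-coding transcripts were counted, at 9.63 CPM per kb ± 1.41 on a scale where CPM is taken over the footprints on such transcripts.

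The clamp loader, which opens Pcna and closes it around DNA, has a large subunit and 4 small ones. Rfc1, the large subunit, had 8.91 CPM per kb ± 2.12. Rfc2 was the highest at 38.4 ± 5.91, followed by Rfc3 at 26.3 ± 0.299, Rfc4 at 14.0 ± 6.23 and Rfc5 at 13.5 ± 3.53. Over protein-coding transcripts the order turned: Rfc2 was still the highest at 19.6 ± 2.13, but Rfc3 became the lowest at 7.70 ± 2.54. The 4.35-fold difference (± 0.371) between Rfc2 and Rfc1 shrank to 1.69-fold ± 0.244 over protein-coding transcripts. Retained-intron transcripts held 38.7% of the Rfc2 footprints and 75.5% of those of Rfc3, and Rfc1 has a single transcript in the table.

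Catalytic subunits of the replicative polymerases had the lowest levels of the S phase group. Pole, the leading-strand polymerase, had 24 and 53 footprints over a coding sequence of 6852 nucleotides, or 1.67 CPM per kb ± 0.287 (percentile 2.58). Pola1, which extends primers, stood at 2.14 ± 0.272 and Pold1, the lagging-strand polymerase, at 5.81 ± 1.83. Over protein-coding transcripts their order turned, with Pola1 at 2.64 ± 0.115 and Pold1 at 2.04 ± 0.795. Prim1, the catalytic subunit of primase, reached 18.4 ± 5.47 CPM per kb, although primase and Pola1 form a complex. In the same complex, Pola2 stood at 11.0 ± 2.98 and Prim2 at 18.2 ± 3.29. Prim1 and Prim2 changed places between the replicates. Prim1 exceeded Pola1 by 8.48-fold ± 1.48, or 5.33-fold ± 2.89 over protein-coding transcripts.

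Genes of G2 and mitosis were the lowest group and spanned a range from 1.30 CPM per kb for Cenpe to 36.0 for Cdk1. Cdk1 (ENSMUSG00000019942), the kinase that starts mitosis, had counts of 36 and 237, at 36.0 CPM per kb ± 20.4. Ccna2, the cyclin of S phase and G2, stood at 30.2 ± 9.34. Birc5 (survivin), which guides Aurkb to centromeres, stood at 28.5 ± 0.95 with counts of 22 and 65, and Aurkb at 18.2 ± 4.56. Ccnb1 exceeded Ccnb2 by 1.75-fold ± 0.287, with 16.9 CPM per kb ± 9.31 against 9.39 ± 3.79, and by 1.12-fold ± 0.276 over protein-coding transcripts. The condensin partners Smc2 and Smc4, which pair with each other, had levels of 7.89 ± 1.84 and 8.59 ± 3.51 that did not differ beyond their spread. Over protein-coding transcripts, Smc4 stood at 0.661-fold ± 0.0511 of Smc2.

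Among the other mitosis genes, Tpx2, which helps to nucleate spindle microtubules, stood at 19.7 CPM per kb ± 5.87 and Cdc20, an activator of the anaphase-promoting complex, at 15.8 ± 2.17. The kinases Plk1 and Aurka stood at 9.91 ± 2.30 and 8.32 ± 4.52. Top2a, which untangles sister chromatids, stood at 9.83 ± 2.68. Mki67, the widely used marker of dividing cells, had 49 and 195 footprints on its only transcript, but its coding sequence of 9534 nucleotides brought its level to 3.32 ± 0.802 (percentile 8.23). Levels of the spindle checkpoint kinases were likewise low, with Bub1b at 4.25 ± 2.41 and Bub1 at 2.23 ± 1.24. The kinetochore proteins Cenpf and Cenpe closed the order at 2.18 ± 1.07 and 1.30 ± 0.198 CPM per kb.

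The replicates were then compared gene by gene. As a share of the library total, each stage was higher in replicate 2, and the 95% counting intervals did not overlap for any of the 3. On this scale 61.9% of all genes tested were also higher in replicate 2. Summed counts of the 18 mitosis genes were 596 and 2727, or 0.0319% of replicate 1 (95% interval 0.0294 to 0.0346) and 0.0518% of replicate 2 (0.0499 to 0.0538). For the S phase genes the shares were 0.0644% (0.0608 to 0.0681) and 0.0789% (0.0766 to 0.0814). For the G1 genes they were 0.0523% (0.0491 to 0.0557) and 0.0597% (0.0576 to 0.0618). Mitosis genes made up 21.5% of all footprints on members in replicate 1 and 27.2% in replicate 2.

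For each gene, a two-sided binomial test (exact) set the counts against the TMM-scaled library ratio (TMM is a trimmed mean that sets the bulk of genes to no change), with adjustment over all 16427 genes tested. TMM moved every log2 ratio by -0.13 from the ratio of library totals. The test compares 2 libraries and sees counting noise alone, so a call is not a difference between conditions. It called 5 of the 45 members, or 11.1%, against 17.4% of all genes. All 5 were higher in replicate 2, where 5.95% of all genes were called higher and 11.5% lower, and all 5 belonged to mitosis. The median log2 ratio was 0.34 over the members and 0.01 over all genes tested, and 80.0% of members against 50.5% of all genes lay above 0.

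By stage, the median log2 ratio was 0.07 for G1 genes, 0.19 for S phase genes and 0.50 for mitosis genes. Of the 18 mitosis genes, 17 lay above 0, and Birc5 was the exception at -0.06 (0.07 with library totals). Of the S phase genes 14 of 19 and of the G1 genes 5 of 8 lay above 0. The difference between the stages was not tested. The exact binomial test called 0 G1 genes, with 0 at an unadjusted p under 0.05, and 0 S phase genes, with 4 at an unadjusted p under 0.05, namely Tyms, Rfc4, Mcm6 and Mcm7. edgeR's exact test called 0 of both groups, with 0 at an unadjusted p under 0.05. Its estimate of spread came from the difference between these same 2 libraries, so its lack of calls cannot show that they were alike.

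**Figure D2:**
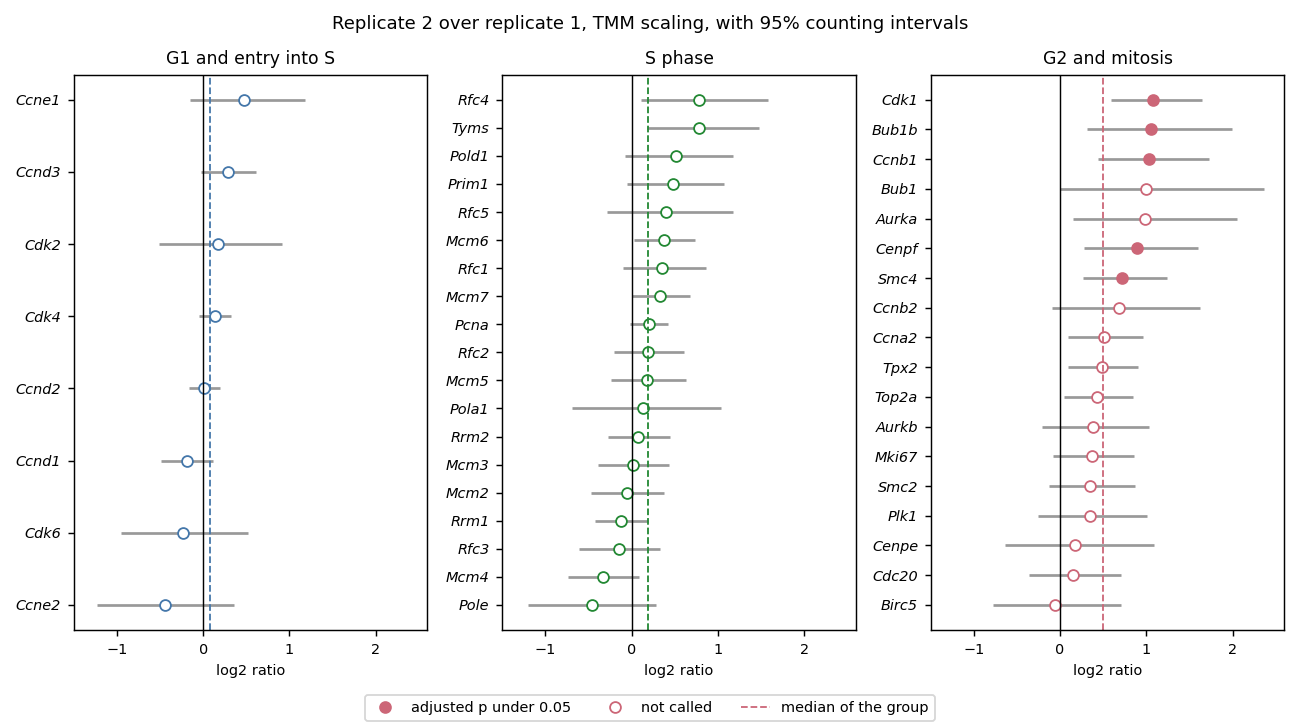
Log2 ratio of replicate 2 over replicate 1 for each gene after TMM scaling, in 3 panels by stage; horizontal lines are 95% counting intervals, filled points passed the exact binomial test over all genes and dashed lines mark group medians of 0.07, 0.19 and 0.50. The 5 filled points all lie in the panel of mitosis genes.

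Cdk1 had the smallest adjusted p of the members. Replicate 1 gave 19.3 CPM (95% interval 13.5 to 26.7) and replicate 2 gave 45.04 CPM (39.5 to 51.2), so replicate 2 was higher and the intervals did not overlap. The log2 ratio was 1.08 (95% interval 0.59 to 1.65) with an adjusted p of 8.09e-05 (exact binomial). For the transcript with the highest mean share alone, Cdk1-002 with counts of 10 and 73, that ratio came to 1.31, at an adjusted p of 0.0442 (exact binomial). Cdk1-001, which differs in its untranslated ends, had counts of 9 and 62, and the retained-intron form Cdk1-005 had 6 and 18.

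Ccnb1 (ENSMUSG00000041431), the partner of Cdk1, differed by almost the same amount. It had 25 and 160 footprints, or 13.4 CPM (8.67 to 19.8) and 30.4 CPM (25.9 to 35.5). The log2 ratio was 1.03 (0.44 to 1.73) with an adjusted p of 0.00329 (exact binomial). Within the gene, Ccnb1-001 had 3 and 40 footprints and Ccnb1-002 had 3 and 33, whereas Ccnb1-007, which ends with its coding sequence, had 9 and 35. The call was lost for Ccnb1-007 alone, which was the transcript with the highest mean share (log2 ratio 0.42, adjusted p 0.830).

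Bub1b (ENSMUSG00000040084), a guardian of the spindle checkpoint, had 15 and 99 footprints, or 8.04 and 18.8 CPM. The log2 ratio was 1.06 (0.31 to 1.99) with an adjusted p of 0.0290 (exact binomial). Cenpf (ENSMUSG00000026605), a large protein of the outer kinetochore, had 24 and 139 footprints, or 12.9 and 26.4 CPM, a log2 ratio of 0.89 (0.28 to 1.60) and 0.0193 as adjusted p (exact binomial). Smc4 (ENSMUSG00000034349), the core ATPase of condensin, had 44 and 225 footprints, or 23.6 and 42.8 CPM. Its log2 ratio was 0.72 (0.26 to 1.23) and its adjusted p 0.0116 (exact binomial). With the trend with density removed, Bub1b (log2 ratio 0.96, adjusted p 0.0610) and Cenpf (0.72, 0.0932) lost their calls in that exact test. Over protein-coding transcripts alone, Bub1b (1.03, 0.0619) and Smc4 (0.57, 0.193) lost theirs. For the highest transcript alone, Bub1b (1.11, 0.0692) and Smc4 (0.35, 0.830) were not called either.

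The remaining mitosis genes did not pass. Bub1 had counts of 8 and 52 and a log2 ratio of 1.00 (-0.0047 to 2.36). Aurka had counts of 12 and 76 and a log2 ratio of 0.99 (0.15 to 2.06). Ccnb2 had counts of 15 and 76 and a log2 ratio of 0.69 (-0.09 to 1.63). Ccna2, Tpx2 and Top2a had more footprints and log2 ratios of 0.51, 0.49 and 0.43, with adjusted p values of 0.0782, 0.0649 and 0.111 in the exact binomial test. Cdc20, Cenpe and Birc5 lay closest to 0, at 0.15, 0.18 and -0.06.

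In the S phase group, Rfc4 and Tyms had the highest log2 ratios, 0.78 (0.11 to 1.58) and 0.78 (0.18 to 1.48), with adjusted p values of 0.0857 and 0.0536 in the exact binomial test. Mcm6 and Mcm7 stood at 0.37 and 0.33, while Mcm2, Mcm3 and Mcm5 stood at -0.05, 0.01 and 0.18 and Mcm4 at -0.33. Rrm1 and Rrm2 stood at -0.12 and 0.08 and Pcna at 0.20. Pole was the lowest at -0.46 (-1.20 to 0.28). Of the G1 genes, Ccnd2 stood at 0.01 (-0.16 to 0.19), Cdk4 at 0.13 (-0.05 to 0.33) and Ccnd1 at -0.19 (-0.48 to 0.11). Ccnd2 and Cdk4 had narrow intervals owing to their depth. Ccne1 and Ccne2 had opposite signs, 0.48 and -0.44, with intervals that both included 0.

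The number of calls depended on scaling and test. With library totals, 16 members were called (2 G1, 5 S phase and 9 mitosis genes) where 19.0% of all genes were, and 86.7% of members against 61.9% of all genes lay above 0. With the trend of the ratio with footprint density removed, 5 members were called, 1 of G1, 1 of S phase and 3 of mitosis, where 16.0% of all genes were, and the medians by stage were 0.05, 0.15 and 0.45. Cdk4 and Pcna were called in that setting, at log2 ratios of 0.35 and 0.41. Under edgeR's exact test, whose common dispersion came from these 2 libraries, the calls were 0 members, with 4 at an unadjusted p under 0.05, and 0.067% of all genes.

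The transcript classes that held the footprints were examined next. Protein-coding transcripts held 74.7% of the members' footprints in replicate 1 and 73.2% in replicate 2, close to the 76.3% and 74.8% over all genes. Retained-intron transcripts held 17.7% and 18.2%, against 9.09% and 9.64% over all genes. Transcripts of a gene share exons, and fragments of the coding mRNA can be assigned to the others, so a share depends on which transcripts are annotated. All footprints fell on protein-coding transcripts for 11 members, 8 of which have 1 transcript in the table.

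Protein-coding transcripts held under 50% for 7 members, all of them S phase genes. These were Rfc3 (24.5%), Pold1 (27.0%), Tyms (35.2%), Rfc2 (37.7%), Rfc5 (45.8%), Mcm3 (48.7%) and Pcna (48.9%). In Mcm3 the coding form Mcm3-001 had 30 and 102 footprints and the retained-intron form Mcm3-002, of similar length, had 28 and 93. In Rfc3 the coding form had 9 and 40, against 13 and 31 on Rfc3-002 and 17 and 30 on Rfc3-003, which retain introns. For Smc4, the transcript with the most footprints in replicate 2 was Smc4-002 (9 and 65). It is annotated as a target of nonsense-mediated decay with a coding sequence of 141 nucleotides. The coding form Smc4-001 (coding sequence of 3861 nucleotides) had 9 and 52. Smc4-004 (3786 nucleotides) had 15 and 55 and the highest mean share of the gene's transcripts.

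**Figure D3:**
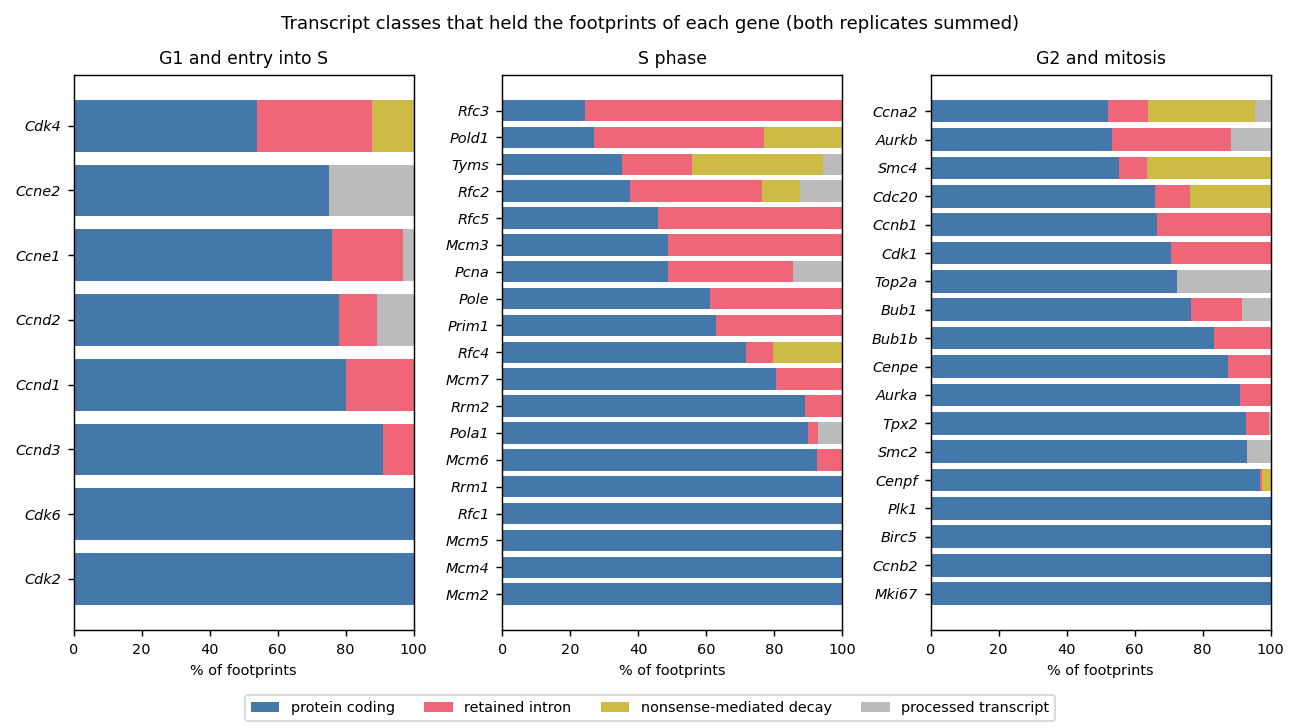
Percent of each gene's footprints, both replicates summed, on 4 classes of transcript, in 3 panels by stage; bars add up to 100. The 7 genes with under 50% on protein-coding transcripts all lie in the S phase panel, with Rfc3 at 24.5%.

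Promoter sequences were read for what the members share beyond their roles. RefSeq windows of 300 bases, 250 before and 50 after the annotated start (build GRCm38.p6), were found for 35 of the 45 members, with 37 windows in all; Aurkb, Rfc2, Smc4, Ccnd1, Mcm4, Pole, Ccnd2, Tpx2, Ccne2 and Ccna2 were not among them. Each was searched on both strands for TTTGAA, the core of the cell cycle homology region (CHR) that the MuvB complex binds, for CCAAT, the box of NF-Y, and for TTTNNCGC, a form of the E2F site. Different motifs can share bases only at their ends, and the E2F form can overlap itself on the other strand. These are matches of letters, not measured binding.

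The motifs varied by stage, as a description without a test. The CHR letters were in 10 of 14 windows of mitosis genes (71.4%), in 1 of 17 windows of S phase genes (5.88%) and in 0 of 6 windows of G1 genes, against 17.9% of all 32851 windows. The CCAAT box was in 92.9%, 76.5% and 33.3% of these windows, against 37.4% of all. The E2F form was in 7.14%, 47.1% and 33.3%, against 5.17% of all. The 25 other mitosis genes gave 75.0% of 24 windows for CHR and 75.0% for CCAAT. Of the genes called between the replicates that have a window, Cdk1, Bub1b and Cenpf held the CHR letters, and Ccnb1 did not.

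**Figure D4:**
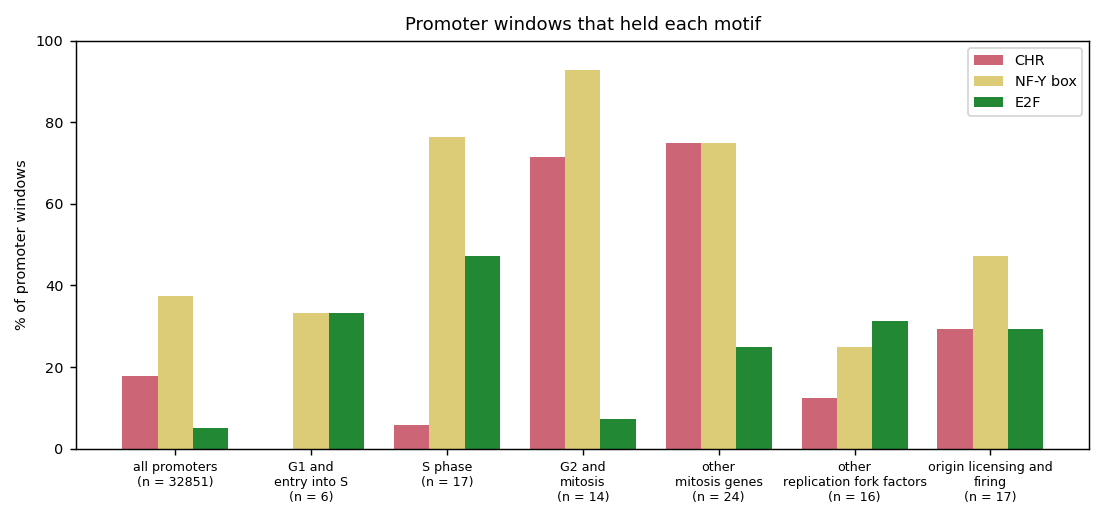
Percent of promoter windows of 300 bases that held each of 3 motifs on either strand, for all RefSeq promoters, the 3 stages and 3 further lists of cycle genes, with the number of windows under each. The CHR bar is highest for both lists of mitosis genes (71.4% and 75.0%), and the E2F bar for S phase genes (47.1%).

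The 200 bases just before the start are shown for 2 mitosis genes and 2 helicase genes, 5′ to 3′ on the strand of the gene, as examples chosen after the matches were seen: Cdk1 as the called gene that held all 3 motifs, Ccnb2 for its repeated NF-Y boxes, and Mcm5 and Mcm6 for their E2F forms, which the other S phase windows often lacked (8 of 17 held one). Capitals mark matches to any of the 3 motifs; TTTGAA is CHR, CCAAT or its reverse ATTGG is the NF-Y box, and the longer runs are E2F forms. Cdk1 lies at chr10:69352913-69353112 (minus strand), Ccnb2 at chr9:70421555-70421754 (minus), Mcm5 at chr8:75109309-75109508 (plus) and Mcm6 at chr1:128359706-128359905 (minus), all GRCm38.p6.
Cdk1: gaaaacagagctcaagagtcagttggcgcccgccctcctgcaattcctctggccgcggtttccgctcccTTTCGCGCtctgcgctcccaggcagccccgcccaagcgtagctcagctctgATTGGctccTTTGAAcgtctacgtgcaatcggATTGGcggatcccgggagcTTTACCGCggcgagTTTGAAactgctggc
Ccnb2: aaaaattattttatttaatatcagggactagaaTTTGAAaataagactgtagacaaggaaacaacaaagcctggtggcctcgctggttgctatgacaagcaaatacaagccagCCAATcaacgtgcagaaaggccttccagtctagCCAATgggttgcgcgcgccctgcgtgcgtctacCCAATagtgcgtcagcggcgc
Mcm5: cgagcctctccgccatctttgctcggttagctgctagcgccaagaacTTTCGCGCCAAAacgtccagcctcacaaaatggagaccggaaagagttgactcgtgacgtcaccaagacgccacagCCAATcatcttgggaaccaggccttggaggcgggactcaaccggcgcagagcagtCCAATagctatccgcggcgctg
Mcm6: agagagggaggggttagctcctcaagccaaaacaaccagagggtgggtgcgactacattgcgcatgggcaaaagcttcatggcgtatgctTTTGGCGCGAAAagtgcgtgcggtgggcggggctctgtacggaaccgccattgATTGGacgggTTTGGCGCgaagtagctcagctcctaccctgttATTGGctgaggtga

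The Cdk1 window held CHR letters that begin 71 and 15 bases before the start, with NF-Y boxes at 208 (beyond the bases shown), 80 and 48 and E2F forms at 131 and 29. It was the 1 mitosis window that held all 3 motifs. In Ccnb2, 3 NF-Y boxes began 87, 54 and 21 bases before the start, spaced alike. In Mcm5 and Mcm6 an E2F form overlapped its own reverse, at 153 and 149 bases before the start in Mcm5 and at 110 and 106 in Mcm6.

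Other genes of the cycle were taken from a list of 95 genes, of which 94 were found under the listed symbol (Wapl was not) and 90 passed the filter. Of these, 14 were called higher and 7 lower in replicate 2 by the exact binomial test, or 23.3% in all, where 17.4% of all genes were called, 5.95% higher and 11.5% lower. The counts of the lists are small, and none was tested against that background. Of the 25 other mitosis genes 5 were called higher and 1 lower, with a median log2 ratio of 0.49. Ect2, which drives the cleavage furrow, had counts of 16 and 131 and a log2 ratio of 1.36, and Mad2l1, Ube2c, Racgap1 and Prc1 had log2 ratios of 0.89, 0.75, 0.64 and 0.58. Mad2l1 (adjusted p 0.0545) and Prc1 (0.0733) lost their calls in the exact binomial test with the density trend removed. Bub3, a checkpoint protein, was called lower at -0.48 with counts of 194 and 426, and it had the highest level of that list at 94.2 CPM per kb ± 16.5.

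Genes that prepare and run replication forks came next. Of 16 tested genes of origin licensing and firing, 14 lay above 0 and 1 was called, Orc5, which had 44 and 224 footprints (log2 ratio 0.72). Orc6 had the highest level of this list, 44.0 CPM per kb ± 4.58, and Orc1, with 2 and 7 footprints, the lowest of its complex. The 12 further fork genes had a median of 0.14, and the exact binomial test called 0 of them, with 2 at an unadjusted p under 0.05; edgeR's exact test called 0, with 0 unadjusted. Pole4, a small histone-fold subunit of the leading-strand polymerase, had the highest level of that list at 141 CPM per kb ± 18.5, 86.5-fold ± 25.9 that of the catalytic subunit Pole.

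The tested inhibitors of the cycle were lower in replicate 2. Of the 7 CDK inhibitor genes 5 were tested, and all 5 lay below 0. The exact binomial test called 4 of them lower in replicate 2, where 11.5% of all genes were called lower. By edgeR's exact test 0 were called, with 0 at an unadjusted p under 0.05. Cdkn1a had counts of 194 and 432 and a log2 ratio of -0.46, Cdkn1b counts of 239 and 564 and -0.38, Cdkn1c counts of 223 and 476 and -0.52, and Cdkn2d counts of 161 and 345 and -0.52. The same 4 were called with the density trend removed; with library totals 3 were, and all 5 stayed below 0. The highest level was that of Cdkn1b, which holds cells in G1, at 198 CPM per kb ± 24.8, while Cdkn2c stood at 18.8 ± 3.28. Cdkn2a had 0 footprints in replicate 1 and 2 in replicate 2; the upper end of the exact 95% interval in replicate 1 was 1.98 CPM.

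In the retinoblastoma and E2F family 1 of 12 tested genes was called, Rbl1, which had 15 and 95 footprints (log2 ratio 1.00) and lost its call with the density trend removed (adjusted p 0.0883, exact binomial); Tfdp1, the partner of E2F proteins, had the highest level at 31.3 CPM per kb ± 0.628. Of the 7 cohesin genes found 4 were called higher, namely Stag1 (0.85), Pds5a (0.79), Stag2 (0.49) and Pds5b (0.43), while Rad21 had the highest level of that list at 70.7 ± 0.91. Cohesin also acts in cells that do not divide. In the anaphase-promoting complex 3 of 13 genes were called higher, Cdc27 (0.62), Anapc5 (0.55) and Cdc23 (0.46), and 2 lower, Anapc2 (-0.39) and Fzr1 (-0.25). Fzr1, which keeps the complex active in G1 and in neurons, lost its call with the density trend removed (adjusted p 0.299, exact binomial), where Cdc16 was called higher (0.44). Anapc11, the catalytic RING subunit, had the highest level of that list at 390 CPM per kb ± 6.80.

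**Figure D5:**
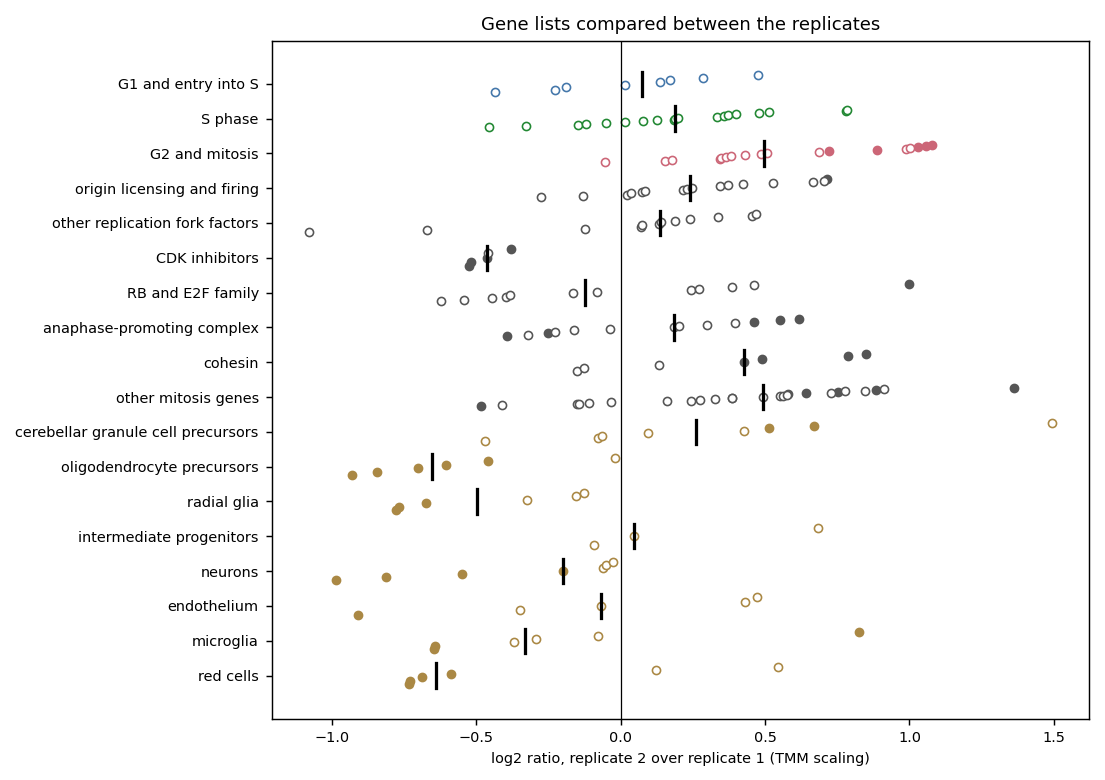
Log2 ratio of replicate 2 over replicate 1 after TMM scaling for each tested gene of the 3 stages, 7 further lists of cycle genes and 8 lists of cell type markers; filled points passed the exact binomial test and black bars are list medians. Both mitosis lists have medians near 0.50 and 0.49, while CDK inhibitors (-0.46) and oligodendrocyte precursor genes (-0.65) lie below 0.

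Markers of the cell types that divide in this tissue did not move as 1 block. Over all genes tested, the exact binomial test called 5.95% higher and 11.5% lower in replicate 2. Of all genes tested, 50.5% lay above 0 with TMM scaling and 61.9% with library totals. The marker lists were not tested against these shares. The 8 genes listed for cerebellar granule cell precursors were Atoh1, Barhl1, Pax6, Zic1, Zic2, Neurod1, Gli1 and Mycn. Whether their footprints came from dividing cells cannot be told in whole brain. The 8 genes summed to 0.0531% of replicate 1 and 0.0650% of replicate 2. With TMM scaling 5 of 8 lay above 0 (7 with library totals), and Pax6 (0.67) and Neurod1 (0.51) were called higher. Gli1 (-0.47), Mycn (-0.08) and Zic2 (-0.07) lay below 0 with TMM scaling and were not called. Atoh1, which defines these precursors, had 3 and 31 footprints, or 1.61 and 5.89 CPM. Its log2 ratio of 1.49 (0.07 to 4.10) was not called (adjusted p 0.164, exact binomial). The 6 oligodendrocyte precursor genes summed to 0.0692% and 0.0520%; all 6 lay below 0 with TMM scaling, 5 of 6 with library totals, and 5 were called lower, led by Olig2 (-0.93). The 6 radial glia genes summed to 0.169% and 0.145%, with 6 of 6 below 0 under both scalings and 3 called lower. With the density trend removed, Slc1a3 (0.12) and Vim (0.10) lay above 0. Intermediate progenitor genes summed to 0.00434% and 0.00502%, with 0 of the 3 tested genes called by the exact binomial test, 0 at an unadjusted p under 0.05 and the same by edgeR's exact test.

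Each of the remaining lists held called genes. Neuronal genes had 7 of 7 below 0 with TMM scaling and 4 of 7 with library totals. Of these genes 4 were called lower, where 11.5% of all genes were. With the density trend removed the direction turned for 4 of 7, their median was 0.02, and Map2 was called higher at 0.36. Red cell genes summed to 0.249% and 0.171%, and 4 of the 6 tested were called lower. Microglial genes summed to 0.0258% and 0.0251%, with 5 of 6 below 0 under TMM scaling, 1 called higher and 2 called lower. Endothelial genes summed to 0.0266% and 0.0225%, and 1 of 5 was called lower. No marker of any list was at 0 in either library. The part of these differences in the ratios of the mitosis genes was not tested.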

How the data were processed

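Raw counts of ribosome-protected fragments (25 to 35 nucleotides) per transcript were deposited by the authors as 1 table, with 1 column per replicate and with transcript and coding lengths. Trimmomatic 0.36, Bowtie2 2.2.6, SAMtools and build GRCm38.p4 are named in the submitters' processing notes, without roles; the counter and the treatment of strand, duplicates and fragments that match several places are not given in the sources used here. Overlapping genes and near-identical copies are therefore uncertain.

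Symbols were read from transcript names, and counts were summed per gene. In 69 genes with a pair of transcripts of identical lengths, the squared difference divided by the summed count averaged 0.966; 1 is the value for independent counts and 0 that for fragments counted on both. Libraries were scaled by TMM (factors 0.957 and 1.04, edgeR 4.0.16). Genes whose mean count reached 10, 16427 in all, were compared with a two-sided exact binomial test (scipy 1.17.1), Benjamini-Hochberg adjusted over all of them, with calls at an adjusted p under 0.05. Log2 ratios use a prior of 0.5 CPM; their intervals are exact Clopper-Pearson intervals at 95% without it. A quasi-likelihood fit could not be made, since 1 group of 2 samples has no contrast. Alternatives were library totals, DESeq2 1.42.0 size factors, protein-coding transcripts, the highest transcript, other filters, another prior, other lengths for the level per kb, edgeR's exact test and removal of the running median of the ratio over 50 bins of footprint density (count per nucleotide). The test was also run on simulated counts in which some genes were given set changes and the only noise was counting noise. That run cannot show how often it makes false calls where libraries differ in other ways.

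The members and lists were chosen with earlier results of these data known. Genes are named where they were called, had the 3 highest or the lowest level of their stage, had a count under 10, or belong to a complex described. Other cycle genes are named where called or highest in their list.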

Additional observations from a re-analysis of the deposited data

How the results depend on the processing

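The number of called members was 5 in the main setting, 16 with library totals and 2 with the highest transcript per gene. It was 0 with edgeR's exact test (4 at an unadjusted p under 0.05). With the mean count raised to 50 it was 7 of 36, and the other settings gave 4 or 5. Calls over all genes moved too. They numbered 2861 (17.4% of all genes tested) in the main setting, 3123 (19.0%) with library totals and 11 (0.067%) with edgeR. With the highest transcript they numbered 1295, and at a mean of 50 they numbered 2959. No share of all genes was computed for these last settings, so their member calls have no background beside them. The other settings gave 2368 to 2860, and the filter also changed how many genes were tested. The median log2 ratio of all members moved from 0.34 to 0.47 with library totals and to 0.28 with the density trend removed. For G1 genes it moved from 0.07 to 0.20 with library totals and to -0.056 with the highest transcript, and for S phase genes from 0.19 to 0.31 with library totals; the mitosis median stayed between 0.45 and 0.62. With the highest transcript alone, the share of G1 genes moved from 0.0560% to 0.0371% and that of S phase genes from 0.0717% to 0.0843%. Leaving out 1 replicate gave shares of 0.149% to 0.190% for all members, 0.0523% to 0.0597% for G1, 0.0644% to 0.0789% for S phase and 0.0319% to 0.0518% for mitosis. The sign turned for Birc5 with library totals (0.065) and for Cdk4 with the highest transcript (-0.011). Of 80 alternative values of level per length, 18 moved by more than the spread of the replicates; with the full length of the highest transcript, Ccnd1 stood at 18.4, Rfc2 at 8.06 and Birc5 at 3.62 CPM per kb.

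No paired analysis was possible because both samples belong to 1 group. Low counts leave wide intervals: with 15 footprints in replicate 1, Ccnb2 has a log2 ratio between -0.09 and 1.63, and with 16, Pola1 has one between -0.69 and 1.04. The 2 libraries give no measure of the spread between animals beyond their own difference.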
